A study of Ovis aries with 8 samples.

Results

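The genes described here are the cell division genes on an Agilent sheep array hybridised with RNA of late-gestation fetal lung. They were found by the gene name of their probes in the scanner files (CDC2, CDK1, CCNA2, PCNA, AURKA, TYMS, HMMR or ASPM) or by words in the probe description, such as mitotic, centromere, aurora, kinesin or the name of a cyclin. The rule found 14 of the 863 genes named on the array, read by 16 of the 15008 non-control probes, most of which carry no gene name. The theme and the gene names were chosen by the difference between aldosterone and control lungs in these same arrays, so that difference is given for the members as a description, without a test. Of the 16, 6 carried one of the gene names and 10 were found by description alone. The letters "cyclin-D" also occur in "cyclin-dependent", which brought in 4 probes, for CDK2, CDK4, CDK5 and CDKN1C. By their known functions 13 of the 16 probes, for 11 genes, belong to the division cycle. The other 3, for CDK5, KIF5B and KLC4, share only words with it. No probe had TYMS or HMMR as its gene name. Thymidylate synthase was found under its sheep gene ID and is given beside the 16 without being counted among them, and HMMR was not analysed here. The names CCNB1 and KLC4 rest on the array's description of an assembled transcript as like the bovine and the rat protein.

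A dividing cell copies its DNA in S phase and separates the copies in mitosis. Cyclins are made and destroyed in turn and switch on their partner kinases. The G1 kinases open the way to S phase, and cyclin A and cyclin B with CDK1 carry the cell through G2 into mitosis. Transcripts of the mitotic genes are made mainly in cells that are cycling, so in a tissue their level is often read as a measure of how many cells divide. Late in gestation the lung still grows while its epithelium matures for breathing.

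The 8 lungs came from 4 sets of twin sheep fetuses at about 130 days of gestation, where term is 147 days. In each set 1 fetus received 0.2 mg of aldosterone over 48 hours, begun 5 days after surgery, and its twin received vehicle. Aldosterone is the adrenal hormone that acts through the mineralocorticoid receptor. The groups thus held 4 aldosterone and 4 control lungs, named below by group and replicate number, and each lung's RNA was measured on its own 1-colour array. Lungs of the same number deviated together and were taken as a pair, although the labels do not say that a number marks a twin set. The fits behind the values after ± did not use the pairs. The arrays lay on 1 slide in 2 rows, pairs 1 and 2 in row 1 and pairs 3 and 4 in row 2. Between 76.5% and 85.4% of spots were well above background per array. The surfactant proteins SFTPA1, SFTPB and SFTPC, which mark the alveolar type II cells of the lung, were well above background on all 8 arrays. All 16 probes and that of TYMS were too, so the filter on dim probes removed none of them. With 4 arrays a group, their number sets the limit of precision throughout. The RNA is of whole lung, where fewer cells of a type and less RNA per cell cannot be told apart.

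Every probe is a 60-base oligonucleotide that reads the transcript at 1 place. The probes on which the results turn are printed 5′ to 3′ from the array files, in lower case, to show which stretch of each transcript was read. For PCNA, capitals mark the 30 bases that both of its probes share, so these 2 probes are not independent measurements. Genome positions were not used here.
CDK1: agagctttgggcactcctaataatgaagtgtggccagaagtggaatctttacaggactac
CCNA2: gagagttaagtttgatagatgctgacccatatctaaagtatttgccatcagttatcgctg
AURKA: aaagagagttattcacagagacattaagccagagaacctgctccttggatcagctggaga
ASPM: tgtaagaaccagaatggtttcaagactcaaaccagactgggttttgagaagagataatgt
TYMS: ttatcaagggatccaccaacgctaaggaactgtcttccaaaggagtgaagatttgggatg
PCNA probe 1: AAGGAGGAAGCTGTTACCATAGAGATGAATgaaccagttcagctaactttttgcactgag
PCNA probe 2: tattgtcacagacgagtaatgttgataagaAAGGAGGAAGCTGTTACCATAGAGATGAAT
CDK2: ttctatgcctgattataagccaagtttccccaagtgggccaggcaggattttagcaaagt
CDKN1C: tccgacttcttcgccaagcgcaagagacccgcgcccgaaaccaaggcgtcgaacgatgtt

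The G and C content of the 16 probes ran from 35% to 60%, with a median of 44.2%, against a median of 45% over all probes kept. The kinases CDK1, CDK2, CDK4 and CDK5 are related proteins. Laid on each other without gaps, no probe of a member or of TYMS matched one of a different gene among them at more than 26 of 60 bases. A run of 20 bases or more was shared with another probe of the array by the PCNA probes, with each other, and by the KIF5B probe, with a probe for an unnamed transcript.

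The genes of mitotic entry had higher means after aldosterone, with the largest values in the aldosterone lung of replicate 2. A value is the log2 processed signal after the 75th percentile of its array was subtracted, and values are not comparable between probes. CDK1, whose kinase activity starts mitosis, stood at -2.09, -1.15, -2.53 and -2.31 in aldosterone lungs 1 to 4 and at -2.70, -3.06, -2.77 and -2.58 in the controls. The groups did not overlap, although the lowest aldosterone lung and the highest control lay close. Their difference was 0.75 ± 0.29 on the log2 scale (limma SE, n = 4 per group), a 1.69-fold ratio. CCNA2, the A-type cyclin needed in S phase and G2, stood at -2.12, -1.58, -2.85 and -2.22 after aldosterone and at -2.79, -3.25, -2.94 and -2.82 in the controls. Aldosterone lung 3 lay among the controls and the other 3 above them, for a difference of 0.76 ± 0.25. CCNB1, the cyclin that partners CDK1 in mitosis, stood at -0.24, 0.65, -0.94 and -0.64 after aldosterone and at -0.90, -1.18, -0.60 and -1.14 in the controls. The groups overlapped, with 2 of the 4 aldosterone lungs above the highest control, and the difference was 0.66 ± 0.32. Unlike CDK1 and CCNA2, it was lower in the aldosterone lung of pair 3 (-0.34). Its probe contains a stop codon in each of the 3 reading frames, read 5′ to 3′.

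The spindle genes also had their highest value in aldosterone lung 2. AURKA, the mitotic kinase that matures centrosomes and builds the spindle, stood at -3.80, -3.13, -3.83 and -4.004 after aldosterone and at -4.28, -4.32, -4.12 and -4.29 in the controls. All 4 aldosterone lungs were above all 4 controls, and the controls lay within 0.20 of each other. The difference was 0.56 ± 0.20, a 1.48-fold ratio. This was the dimmest of the member probes, at a processed intensity of 64.1 to 168. ASPM, a protein of the spindle poles, stood at -2.18, -1.53, -2.58 and -2.88 after aldosterone and at -2.78, -3.29, -2.79 and -3.52 in the controls. Aldosterone lung 4 lay below control lungs 1 and 3 but above the control lung of the same number, and the difference was 0.80 ± 0.30. With normexp background correction and quantile normalization the difference was 0.27 ± 0.11 for AURKA and 0.46 ± 0.22 for ASPM. An offset of 50 was added to the intensities in that setting, and an offset makes log2 differences of dim probes smaller. Its share in these values was not tested. Other probes also had smaller differences in that setting, at 0.53 ± 0.22 for CDK1, 0.54 ± 0.18 for CCNA2, 0.63 ± 0.29 for CCNB1 and 0.48 ± 0.16 for TYMS.

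**Figure D1:**
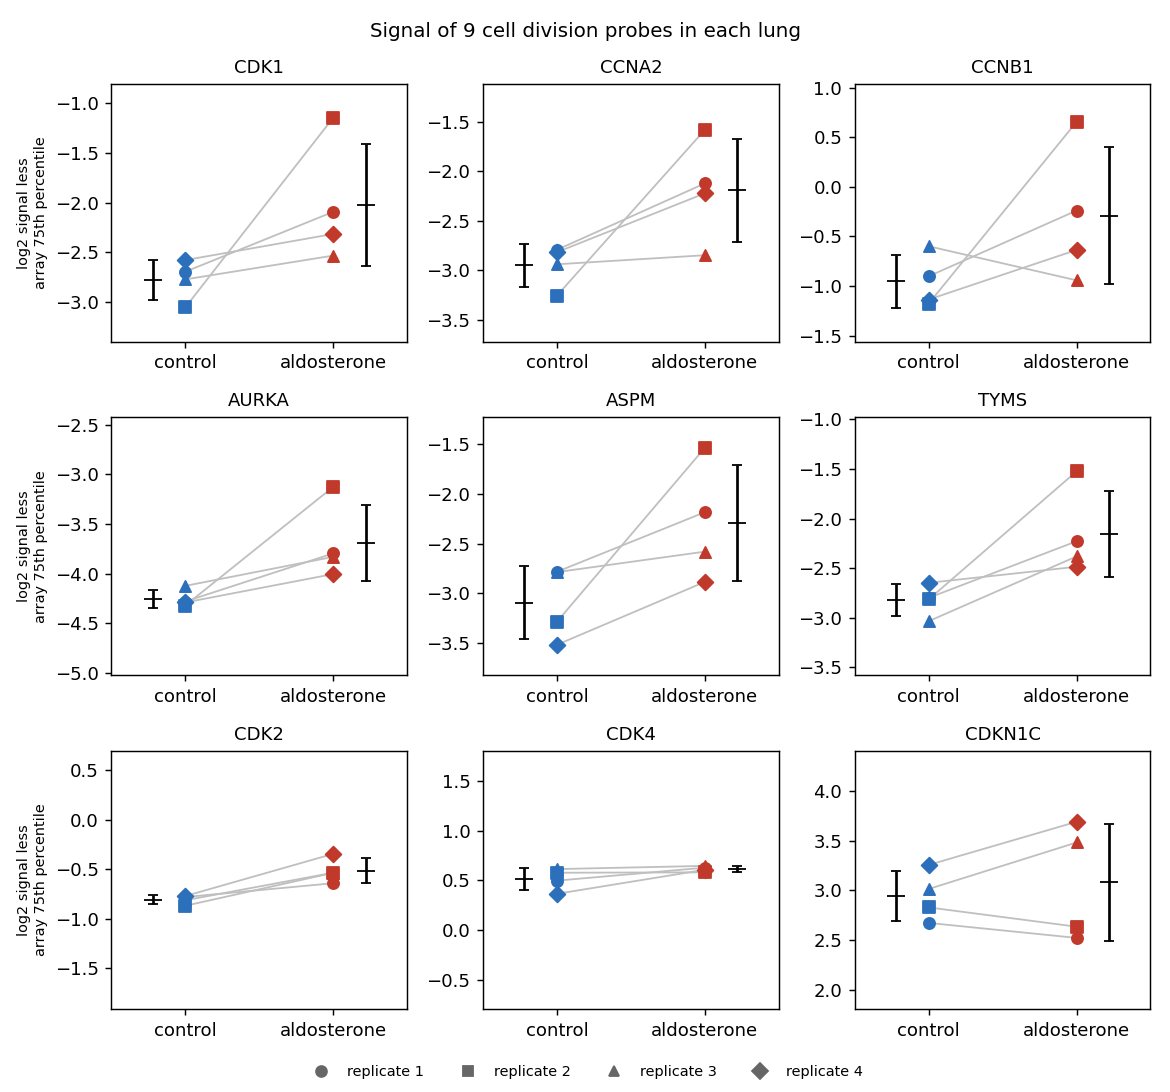
Log2 signal less the array's 75th percentile for 9 probes in each of the 8 lungs, controls in blue and aldosterone in red, with same-numbered lungs joined and the group mean ± SD beside the points; every panel spans 2.6 log2 units on its vertical axis. The red square, aldosterone lung 2, is the highest point for CDK1, CCNA2, CCNB1, AURKA, ASPM and TYMS and not for CDK2, CDK4 or CDKN1C.

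The DNA synthesis genes were TYMS and PCNA. TYMS, the enzyme that makes thymidylate for new DNA, stood at -2.23, -1.52, -2.38 and -2.49 after aldosterone and at -2.80, -2.81, -3.03 and -2.65 in the controls. The groups did not overlap and the difference was 0.67 ± 0.22, a 1.59-fold ratio. PCNA, the sliding clamp that holds DNA polymerases on their template, stood on its first probe at 0.72, 0.80, 0.23 and 0.26 after aldosterone and at 0.33, 0.48, 0.49 and 0.33 in the controls. Aldosterone lungs 1 and 2 were above every control and aldosterone lungs 3 and 4 below every control. The difference was 0.10 ± 0.17, and 0.15 ± 0.20 on the second probe, which overlaps the first. On the first probe it was -0.0020 without aldosterone lung 2.

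CDK2 had a smaller difference, of similar size with and without the lungs of replicate 2. This kinase, which with cyclin E and cyclin A starts and sustains S phase, stood at -0.64, -0.54, -0.54 and -0.35 after aldosterone and at -0.78, -0.87, -0.81 and -0.77 in the controls. The groups did not overlap, the controls lay within 0.10 of each other, and the highest lung was aldosterone lung 4. The difference was 0.29 ± 0.12, a 1.23-fold ratio, and 0.28 ± 0.17 without both lungs of replicate 2. CDK4, the kinase that cyclin D brings into play in G1, stood at 0.63, 0.58, 0.65 and 0.61 in the aldosterone lungs and at 0.50, 0.58, 0.61 and 0.36 in the controls. It was higher in the aldosterone lung of all 4 pairs, but by as little as 0.0038 in pair 2, and the difference was 0.10 ± 0.12. CDKN1C, an inhibitor of the cyclin-dependent kinases that restrains growth, had a difference of 0.14 ± 0.29. Its 4 aldosterone lungs stood at 2.52, 2.63, 3.48 and 3.69 and its controls at 2.67, 2.83, 3.01 and 3.26. It was lower in the aldosterone lung of pairs 1 and 2 and higher in that of pairs 3 and 4, and the group difference was -0.06 without aldosterone lung 4.

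The centromere proteins had differences near 0. CENPB, which binds a repeated sequence in centromere DNA, was read by 2 probes that share no more than 7 bases in a row. They gave -0.05 ± 0.12, with aldosterone lungs at 4.75 to 4.87 and controls at 4.77 to 5.04, and 0.08 ± 0.13, with aldosterone lungs at 1.43 to 1.77 and controls at 1.36 to 1.62. The groups overlapped on both. CENPC, part of the platform on which the kinetochore is built, stood at 0.03, -0.46, -0.68 and -0.98 after aldosterone and at -0.23, -0.32, -0.35 and -0.91 in the controls. Its highest and its lowest lung were both aldosterone lungs, and the difference was -0.07 ± 0.24.

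The 3 probes with another function lay close to 0 as well. CDK5, a kinase best known from neurons and activated by partners other than cyclins, stood at -0.99, -0.71, -0.67 and -0.26 after aldosterone and at -0.87, -0.90, -0.33 and -1.12 in the controls, a difference of 0.15 ± 0.21. Both its highest lung, aldosterone 4, and its lowest, control 4, belonged to pair 4. KIF5B, a heavy chain of the kinesin motor that carries cargo along microtubules, stood at 3.96, 3.91, 3.76 and 3.62 after aldosterone and at 3.63, 4.09, 4.23 and 3.88 in the controls, a difference of -0.15 ± 0.17. The unnamed probe that shares 30 bases with it gave -0.16 ± 0.17. KLC4, a light chain of that motor, stood at 2.84 to 3.14 after aldosterone and at 2.68 to 3.18 in the controls, a difference of -0.02 ± 0.16. The groups overlapped for CDK5, KIF5B and KLC4.

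**Figure D2:**
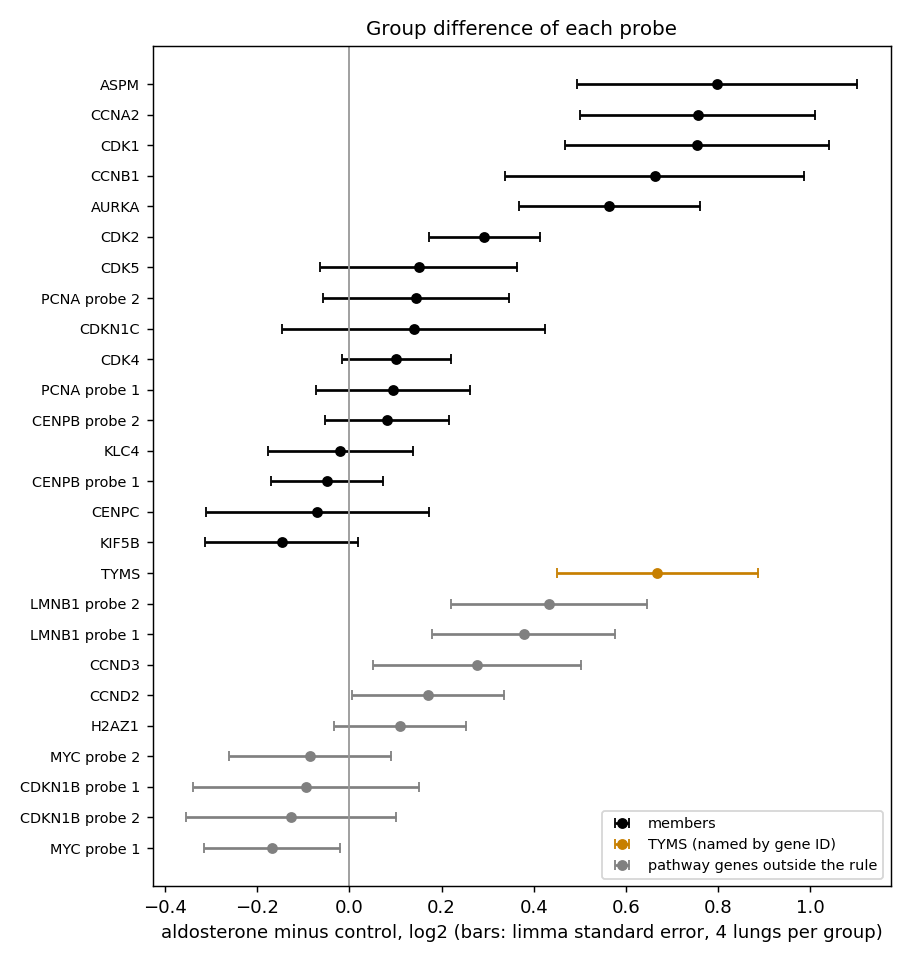
Difference between the means of 4 aldosterone and 4 control lungs on the log2 scale, with limma's standard error, for the 16 probes (black), TYMS (orange) and 9 probes of pathway genes that the rule does not take (grey). ASPM, CCNA2, CDK1, CCNB1 and AURKA lie between 0.56 and 0.80, CDK2 at 0.29, and the other black points between -0.15 and 0.15.

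Over the 16 probes the counts follow beside those of the whole array, and nothing is read from them, since the rule used this contrast. An unadjusted p under 0.05 serves here only as a mark of a difference that is large for its spread, not as a test of a member. Of the 16, 12 had a difference above 0, against 51.5% of the 12168 probes kept, and their median difference was 0.14 against 0.0073. At an unadjusted p under 0.05 in limma 5 were higher (CDK1, CCNA2, AURKA, ASPM and CDK2) and 0 lower, where 1.27% of all kept probes were called higher and 0.6% lower. In 3 of the 16, CDK1, AURKA and CDK2, all 4 aldosterone lungs were above all 4 controls, where 0.855% of all probes were, and in 0 all were below, where 0.452% were. The aldosterone lung was the higher in 4 of 4 pairs for 6 of the 16, those 5 and CDK4, where 7.67% of all probes were, and lower in 4 of 4 for 0, where 5.64% of all were. A difference of at least 0.5 was seen in 5, where 2.11% of all probes had one. With the replicate block 5 were higher and 0 lower at an unadjusted p under 0.05, where 2.82% and 1.61% of all probes were. At an adjusted p of 0.05 limma called 0 of the 12168 probes, and 0 with the replicate block. An unadjusted p under 0.05 was found for 228 probes, and for 539 with the block. Both counts are a smaller share of the 12168 than the 0.05 expected if no probe differed. Of those 228, 155 were higher, 68% in all; with arrays centred on their medians the split was 104 higher and 94 lower, and in the authors' values it was 88 higher and 115 lower. The count of 5 fell to 3 without aldosterone lung 2, to 2 without control lung 2 and to 3 without control lung 3, and to 0 without both lungs of replicate 2. Over all kept probes the count of higher ones, 155, was 211, 90, 86 and 92 in the same settings, in that order. CDK2 was outside the count without any 1 of aldosterone lungs 2, 3 and 4 and control lungs 1, 2 and 3, and also with median centring and in the authors' values. CDK1 was outside it without control lung 2 or 3. ASPM was outside it without any 1 of aldosterone lungs 1 and 2 and control lungs 2 and 4, and after normexp and quantile normalization.

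The 5 probes with a difference of at least 0.5, for CDK1, CCNA2, CCNB1, AURKA and ASPM, are averaged next; they were set apart by the contrast that the rule used, so the averages are a description. Aldosterone lung 2 was the highest of the 8 for 7 of the 16 members, these 5 and both PCNA probes, and it was the highest for 12.5% of all kept probes. Control lung 2 was the lowest for 5 of the 16, and for 4 of these 5, and it was the lowest for 7.65% of all. Averaged over the 5 probes and set against the mean of the controls, the aldosterone lungs lay at 0.72, 1.46, 0.26 and 0.39 and the control lungs at 0.11, -0.21, 0.16 and -0.06. The aldosterone lungs spread over a wider range than the controls did, mostly through aldosterone lung 2. The other aldosterone lungs lay between 0.26 and 0.72. The same average over pairs was 0.60, 1.67, 0.10 and 0.45. Over the other 11 members, CDK2 and CDK4 among them, it was 0.13, 0.06, -0.10 and 0.18, where smaller values follow from how the 5 were set apart.

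**Figure D3:**
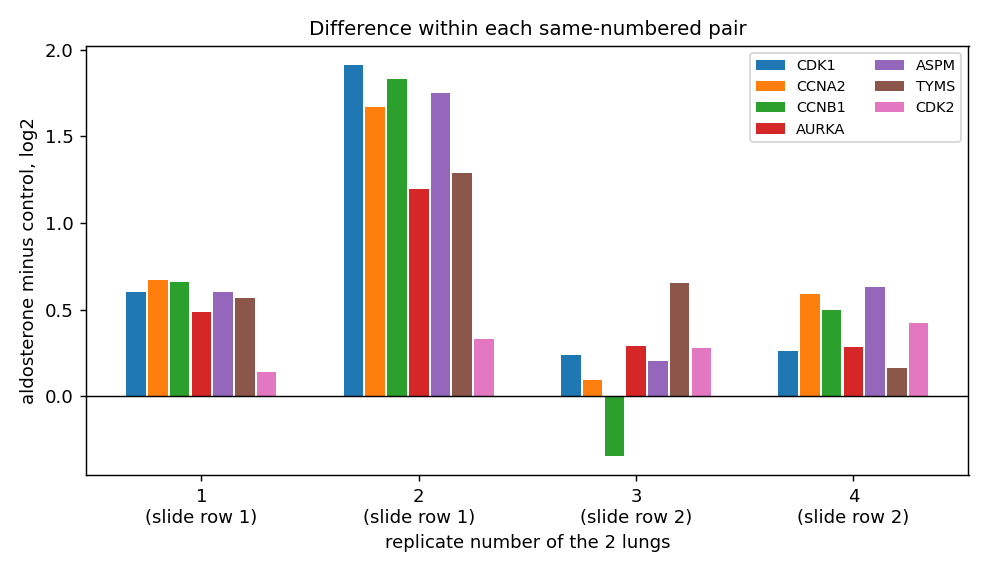
Aldosterone lung minus control lung of the same replicate number, on the log2 scale, for 7 probes. Pair 2 gives 1.19 to 1.91 for the 5 cyclin, kinase and spindle probes and 1.29 for TYMS, while CDK2 stays between 0.14 and 0.42 in all 4 pairs.

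Without both lungs of replicate 2 the differences were 0.37 ± 0.19 for CDK1, 0.45 ± 0.23 for CCNA2, 0.27 ± 0.25 for CCNB1, 0.35 ± 0.17 for AURKA, 0.48 ± 0.28 for ASPM and 0.46 ± 0.18 for TYMS. Leaving out aldosterone lung 2 alone gave 0.46 ± 0.18 for CDK1 and 0.35 ± 0.22 for CCNB1. Each was thus smaller than over all lungs, and each remained above 0.

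Between the rows of the slide the sizes differed too. Within row 1, which held pairs 1 and 2, the mean over the 5 probes was 1.14, and within row 2 it was 0.28. For CDK1 the values were 1.26 and 0.25, for CCNA2 1.17 and 0.34, for CCNB1 1.25 and 0.08, for AURKA 0.84 and 0.29 and for ASPM 1.18 and 0.42. CDK2 gave 0.24 in row 1 and 0.35 in row 2. Whether the difference between aldosterone and control lungs itself differed between the rows was not tested. Row and replicate number cannot be told apart here. Set by row alone, CDKN1C was 1 of the 16 probes in which all 4 lungs of row 2 lay above all 4 of row 1, and in 0 of the 16 they all lay below. Over all kept probes the shares were 6.99% and 5.78%, so the members' count was no larger than the array's share. For CDKN1C the difference of row 2 less row 1 was 0.70 ± 0.17 (limma adjusted p = 0.125 over all kept probes), which did not pass. None of the 16 passed that test of the rows in limma, while 5 probes of the whole array were called higher in row 2 (0.0411%) and 11 lower (0.0904%). That fit took every lung as independent, although same-numbered lungs deviated together and shared a row. Its standard errors and p-values for the rows are therefore likely too small.

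**Figure D4:**
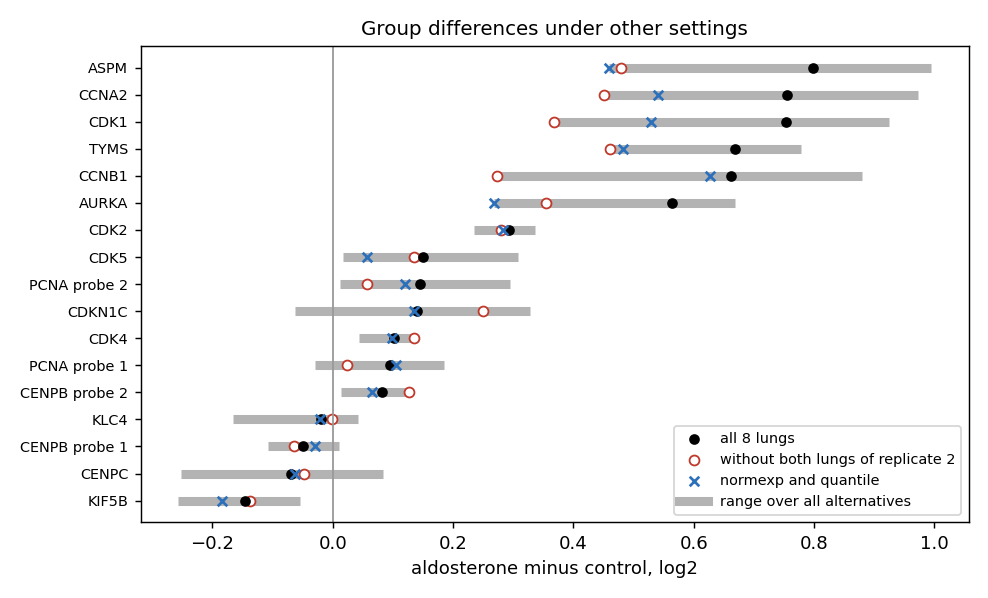
Log2 difference of the 16 probes and TYMS over all 8 lungs (black), without both lungs of replicate 2 (open red), after normexp and quantile normalization (blue cross) and the whole range over the alternatives (grey bar). The bars of ASPM, CCNA2, CDK1, TYMS, CCNB1, AURKA and CDK2 start at 0.23 or higher, and that of CDK2 is the shortest of these 7.

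Further genes of the division cycle came from a list of 74 symbols, of which 4 were already among the members and 6 others were measured by 9 probes. The aldosterone mean was the higher for 5 of these 9 and the lower for 4, with a median of 0.11, where 51.5% of all kept probes were higher and their median was 0.0073. At an unadjusted p under 0.05 in limma 0 were higher and 0 lower, against 1.27% and 0.6% of all. With array weights both LMNB1 probes were higher at such a p (0.013 and 0.028, limma) and the first MYC probe was lower (0.047). With those weights 639 of all 12168 kept probes were higher at such a p and 293 lower. Both LMNB1 probes were also higher at such a p without aldosterone lung 4 (0.025 and 0.016, limma), where 159 of all were. The first was so without control lung 4 (0.028, limma), where 237 of all were. LMNB1, a nuclear lamina protein that is taken apart and rebuilt in mitosis, gave 0.38 ± 0.20 and 0.43 ± 0.21 on a pair of probes that share 30 bases. On both probes aldosterone lung 2 was the highest of the 8 lungs and control lung 2 the lowest. Aldosterone lung 2 was also the highest for H2AZ1 and the second MYC probe. The D cyclins, which bind CDK4 in G1, gave 0.17 ± 0.16 for CCND2 and 0.28 ± 0.23 for CCND3. H2AZ1, a variant of histone H2A, gave 0.11 ± 0.14. On the other side, MYC, a transcription factor that drives growth and cell cycle entry, gave -0.17 ± 0.15 and -0.08 ± 0.18. CDKN1B, an inhibitor of CDK2, gave -0.09 ± 0.25 and -0.13 ± 0.23 on probes that share 59 bases.

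Markers of other cell types were set beside aldosterone lung 2, in which the 5 probes were highest. In aldosterone lung 2 the mean deviation from the control mean was 0.97 over the 3 red cell markers (HBB, AHSP and CA1), 0.80 over the 3 airway secretory markers (SCGB3A2, PIGR and LTF) and 0.61 over the 4 macrophage markers (CD14, CYBB, CYBA and ITGAM). By this mean it was the highest of the 8 lungs for these 3 lists, although control lungs 2 and 3 lay near it for red cells, at 0.91 and 0.96. Aldosterone lung 1, the next highest for the 5 division probes on average, lay below the control mean on all 3 lists. Its mean deviation was -1.56 for red cells, -0.79 for the airway list and -0.32 for macrophages. The summed level, on the log2 scale, ran from 4.59 to 6.88 in aldosterone and from 4.56 to 7.19 in control lungs for red cells. For the airway list it ran from 3.11 to 5.87 and from 4.30 to 6.12, and for macrophages from 0.35 to 1.53 and from 0.42 to 1.15. ITGAM was well above background in 1 of 4 aldosterone and 3 of 4 control lungs, and the other markers of these 3 lists in all 8. The aldosterone mean was the higher for 0 of 3 red cell, 1 of 3 airway and 3 of 4 macrophage markers. In aldosterone lung 2 the mean deviation was 0.14 for type II cells, 0.18 for type I cells, 0.14 for T and natural killer cells, -0.02 for the mesenchyme, -0.12 for the endothelium and -0.54 for neutrophil precursors. The 5 neutrophil precursor markers, of which LTF is also on the airway list, had a lower mean after aldosterone in 5 of 5, with a mean difference of -1.01. Of all 12168 kept probes, 5898 were lower. By the mean over that list the groups overlapped, with aldosterone lungs at -1.54 to -0.54 and control lungs at -0.90 to 1.13. Control lung 2, the lowest for 4 of the 5 division probes, was the highest for that list, at 1.13. Among the aldosterone lungs it was otherwise. Lung 2, the highest for the 5 division probes, was also the highest of them for the neutrophil list, at -0.54. Lung 3, the lowest of them for the division probes on average, was the lowest for that list, at -1.54. The part of these cells in the values of the division genes was not tested.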

How the data were processed

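Total RNA (450 ng) of each of 8 fetal lungs was labelled with Cy3 and hybridised to its own array. The deposited scanner output gives each spot's intensity, linear, from Agilent Feature Extraction (version 10.1.1.1 in the submitters' processing notes). Its processed signal is background-subtracted and detrended, per the file headers. The authors' deposited series table is in log2: every column is the log2 processed intensity shifted by a constant, to a median of 0; the further steps behind it are not stated in the labels.

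Here the 75th percentile of each array was subtracted from log2 processed signal, and spots of a probe were averaged. The 74 values with an outlier flag were dropped. Probes had to be well above background in 4 or more of the 8 arrays, which left 12168 of 15008. The fit was limma 3.58.1 (R 4.3.3) with group as its single term; p-values are two-sided and Benjamini-Hochberg adjusted across the probes kept. The fit was tested on simulated data. Other scalings, filters, blocks and left-out lungs were tried.

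Deviations from the group means correlated at 0.446, 0.275, 0.280 and 0.538 between same-numbered lungs across 12146 probes. All passed 0.1, and the numbers were treated as pairs in the pair differences and the replicate block. Lungs of different numbers passed it too where they shared a slide row, for aldosterone lung 1 with control lung 2 (0.204) and aldosterone lung 3 with control lung 4 (0.110). The threshold thus does not single out same-numbered lungs. The standard errors printed after ± come from fits that did not use the pairs. Over the 16 members the median standard error was 0.198 without the block and 0.153 with it. Same-numbered lungs also shared a slide row.

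Members, lists and roles were chosen with earlier results of these data known. All members, TYMS and the measured genes of the pathway list are named, except 1 listed gene that is not reported here and was left out of the list's counts. Symbols came from the files and from RefSeq gene names (ARS-UI_Ramb_v3.0), for 1382 probes; member names taken from descriptions alone bring this to 1387. Promoters and genome positions were not analysed here.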

Additional observations from a re-analysis of the deposited data

Results flagged for a closer look

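In 3 of the 52 groups of 4 lungs examined, 1 lung stood apart from the others by Dixon's criterion, which chance meets in about 1 of 20 groups. For the first probe of CENPB, control lung 3 was at 5.04 where the other controls lay between 4.77 and 4.81. For KLC4, control lung 4 was at 2.68 where the others lay between 3.11 and 3.18. For CCND3, control lung 4 was at 1.14 where the others lay between 0.60 and 0.63, and the aldosterone lung of the same number was the highest of its group too. No group of CDK1, CCNA2, CCNB1, AURKA, ASPM or TYMS met the criterion, aldosterone lung 2 included. With 4 values a group only a very wide gap meets it, so this does not show that aldosterone lung 2 was like the others.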

How the results depend on the processing

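No probe passed the adjusted threshold under any of the 18 alternatives run. The median difference of the 16 probes kept its direction under all 21, from 0.075 to 0.19. Other filters on dim probes and the blocks could not change that median. They removed none of the 16, and each block held as many aldosterone as control lungs. Keeping the flagged values left it unchanged too. The members were chosen by this contrast, so the direction of their median is a description. The count of all kept probes at an unadjusted p under 0.05, 228, was 539 with the replicate block, 343 with the slide row as a block, 932 with array weights, and 143 to 422 without 1 lung. With the replicate block the same 5 of the 16 probes had an unadjusted p under 0.05. The count of member probes that were higher at that p, 5, was 2 to 5 without 1 lung and 0 without both lungs of replicate 2, an alternative chosen after seeing the data. Over all kept probes the count of higher ones, 155, was 86 to 279 without 1 lung and 92 without both lungs of replicate 2. Of 26 named probes, 18 kept their sign throughout. Signs turned for PCNA probe 1 (-0.029 with array weights and -0.0020 without aldosterone lung 2), CDKN1C (-0.064 without aldosterone lung 4), CENPB probe 1 (0.011 without control lung 3), CENPC (0.084 without aldosterone lung 4, 0.0039 without control lung 1) and KLC4 (0.042 without aldosterone lung 3, and 0.0049, 0.028 and 0.028 without control lungs 1, 2 and 3). Outside the 16 they turned for MYC probe 2 (0.0095 without aldosterone lung 3) and CDKN1B (0.016 and 0.077 on probe 1 without control lungs 2 and 3, 0.013 on probe 2 without control lung 3). The cause was not tested. Without 1 lung in turn these differences ran up to 0.18 for PCNA probe 1 and 0.33 for CDKN1C, and down to -0.078 for CENPB probe 1, -0.25 for CENPC, -0.14 for KLC4, -0.18 for MYC probe 2 and -0.27 for each CDKN1B probe. With 4 lungs a group the median standard error of a probe was 0.20 on the log2 scale, above the difference of most members.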
